A study of Sus scrofa with 2 samples.

Results

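The cytokine gene IL33 and 4 further genes of the interleukin-1 family, IL18, IL1R1, IL1RAP and IL1RL1, were followed in the somatic cells of 2 pig antral follicles. They are 5 of the 22342 genes in the deposited list, matched by symbol in both libraries. The members were chosen by the UMIs of IL33, which was a leading gene of the largest cluster of these cells, so its levels by cluster are a description with no test. The other 4 are its receptor, the partner of that receptor and near relatives. Both follicles measured over 7 mm, came from 1 pubertal Landrace × Yorkshire pig aged 210 days, and had grown after an injection of PMSG, a gonadotropin that drives follicle growth. They are labelled follicle 1 and follicle 2, and nothing else sets them apart in the labels. Cells were flushed from each punctured follicle, and cumulus cells were released from around the oocyte with hyaluronidase. Each follicle gave 1 library of the 10x Genomics 3′ kit, which counts each captured transcript once by its unique molecular identifier (UMI).

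With 1 library per follicle and 1 animal, no test between follicles was possible and no p-value is given. All intervals are at 95% and cover counting error only. Barcodes with 2000 to 5000 genes and under 7% mitochondrial UMIs were taken as cells, 9362 of 14289 in follicle 1 (median 11254.5 UMIs) and 7843 of 15548 in follicle 2 (median 13902 UMIs). The libraries share 56 barcode sequences, 18 of them within these limits in both. Doublets were left in. The cells carried granulosa markers: the inhibin subunit INHA stood at 19854 CPM, its UMIs per 1000000 UMIs of all genes, in follicle 1 and 23176 in follicle 2. The 10 immune markers summed to 12.8 and 14.7 CPM, and 1 and 10 cells held enough of them to be called immune-like. The endothelial list summed to 17.1 and 11.8 CPM, with CDH5 at 0, KDR at 12.2 and 4.20 and PECAM1 at 4.17 and 5.86. The oocyte list summed to 4.97 and 5.21 CPM, nearly all from GDF9, with ZP2, ZP3 and BMP15 at 0. The theca or stromal list summed to 309.7 and 504.0 CPM, of which the peptide hormone gene INSL3 gave 307.1 and 496.4.

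Cytokines of the interleukin-1 family signal through paired receptors that share an intracellular TIR domain. IL33 is held in the nucleus and released when a cell is damaged, for which it is called an alarmin. It binds ST2, the product of IL1RL1, which then recruits the accessory protein encoded by IL1RAP. IL1R1 binds IL1A and IL1B and uses the same accessory protein, while IL18 has a receptor pair of its own, IL18R1 and IL18RAP. Each of these receptors passes its signal through MYD88 and the IRAK kinases to TRAF6 and NF-kB. In most tissues IL33 is made by endothelial, epithelial and fibroblast-like cells, and ST2 is carried by mast cells and some lymphocytes. In the ovary, interleukin-1 signalling is known for its part in the inflammation-like events of ovulation.

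In RefSeq on Sscrofa11.1 the IL33 gene lies at chr1:215899830-215941944 on the minus strand, with 8 or 9 exons in its 6 transcripts. The bases before its start are shown because IL33 had a UMI in nearly every cell and because they hold repeated short words. They span chr1:215941945-215942194 and are written 5′ to 3′ on the strand of the gene, with capitals for AGATAA, the word that GATA factors bind, and for TATAAA, both searched on either strand with no overlap between them.
IL33: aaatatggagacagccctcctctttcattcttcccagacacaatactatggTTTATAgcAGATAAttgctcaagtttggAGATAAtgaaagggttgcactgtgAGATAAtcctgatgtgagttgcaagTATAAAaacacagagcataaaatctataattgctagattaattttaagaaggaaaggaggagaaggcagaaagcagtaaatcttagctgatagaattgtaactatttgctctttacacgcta

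The stretch holds 3 copies of AGATAA and 2 of TATAAA. In windows from 250 bases before to 50 bases after the start, 9.17% of 19559 genes held AGATAA at least once. In 19 of the 19559, or 0.0971%, it stood at least 3 times. The stretch is shown for these copies and the limit of 3 is its own count, so that share is no test. TATAAA was held at least once by 10.9% of these windows. No TGANTCA (AP-1), TGACGTCA (CRE) or AAGGTCA (the word of NR5A receptors) was found in the IL33 window. These were held by 6.07%, 2.25% and 3.78% of all windows, so lacking each of them is the usual case. Among the other members, the IL18 window held 2 copies of AGATAA, the IL1RAP window 1 TGANTCA and the IL1RL1 window 1 AAGGTCA, and the IL1R1 window held none of the 5 words. A match is a description of the letters and not of a bound site.

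IL33 was abundant, and its UMIs were found in most cells of both follicles. Follicle 1 held 249309 IL33 UMIs, or 2241 CPM (2233 to 2250), and follicle 2 held 279683, or 2568 CPM (2558 to 2577). The ratio of follicle 2 to follicle 1 was 1.15 (1.14 to 1.15). At least 1 IL33 UMI was found in 95.9% of cells in follicle 1 and 95.4% in follicle 2. Of the 10049 genes with at least 200 UMIs in 1 follicle, 0.667% were at least 2-fold higher in follicle 2 and 1.82% at least 2-fold lower, and the 3 members with that many UMIs, IL33, IL1R1 and IL18, were not among them.

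**Figure D1:**
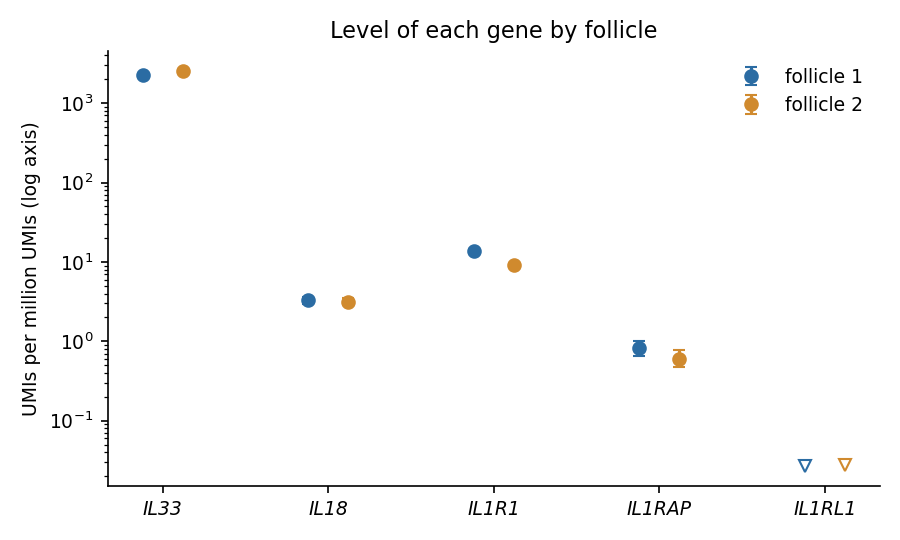
CPM (log axis) of the 5 genes in each follicle, with 95% Poisson intervals for counting error. IL33 stands at 2241 and 2568, and open triangles mark the level that 3 UMIs would give for IL1RL1, which had none.

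Because deeper cells show more UMIs, 5000 UMIs were drawn from each cell that had them, which kept 9343 and 7738 cells. At that depth IL33 was still found in 88.5% (87.9% to 89.2%) and 89.7% (89.0% to 90.4%) of cells. The median cell held 6 IL33 UMIs in follicle 1 and 9 in follicle 2. The 25% of cells with least IL33 had 2 or fewer in both follicles, while the 25% with most began at 17 and 19 and the highest cells held 115 and 92. The 10% of cells with most IL33 carried 35.7% of its UMIs in follicle 1 and 32.6% in follicle 2. IL33 UMIs were therefore found in most cells and were also uneven among them. A UMI alone does not show that a cell made IL33, as taken up below.

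The variance of the drawn IL33 counts was 13.9 times their mean in follicle 1 and 12.7 times in follicle 2. Among the 139 and 146 genes with a mean between 5 and 20 drawn UMIs, the median of that ratio was 1.57 and 1.69. Only 7 and 6 of these genes were more uneven than IL33. INHA had 17.1 and 23.0, but at 19854 and 23176 CPM its mean lay far above that range. Because this ratio can rise with the mean, INHA cannot be ranked against IL33 by it. APOA1, an apolipoprotein gene that also differs widely between these cells, stood at 4091 and 1502 CPM and reached 58.5 and 32.0. IL33 was chosen as a leading gene of a cluster, and so as one that differs between cells. Its place among the genes of like mean was partly set by that choice and is no test.

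**Figure D2:**
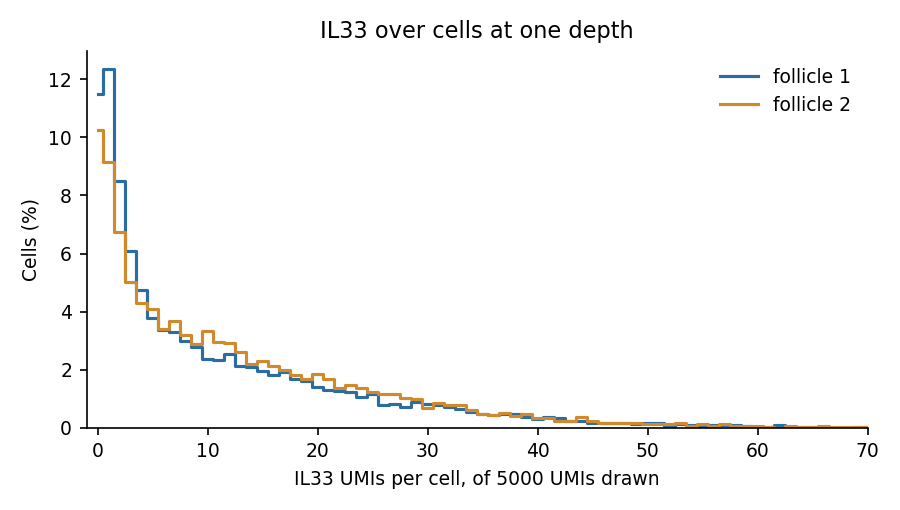
Share of cells (%) by the number of IL33 UMIs among 5000 UMIs drawn from each cell, up to 70, with 1 line per follicle. Both lines are highest at 0 to 2 UMIs and run out in a long tail, with medians of 6 and 9.

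Clusters were made from both follicles together. The members and the other ligands, antagonists and receptors of the family were left out of the genes used. The adaptors, NF-kB genes and proteases described below were not left out, so their levels by cluster may not be independent of the clustering. Cluster 0, the largest, was led by TGFB3, ENPP2, TSPAN12 and IL33, and cluster 1 by the sterol synthesis genes INSIG1, HMGCS1 and MVD. Cluster 2 was led by SLC10A4, ARPP21 and ALPK2 and also held SHAS2, the gene of a hyaluronan synthase, among its 5 leading genes. Cluster 3 was led by DEFB1, CCL26 and CEMIP and held cells of follicle 2 alone. Cluster 4 was led by the cell division genes TOP2A and CDCA8, and cluster 5 by ALDH1A2, SLC24A1 and C12orf75. Cluster 3 stood apart from granulosa cells: INHA was at 2237 CPM there against 24809 in cluster 0 of follicle 2, its cells had a median of 6436 UMIs, and 8 of the 11 immune-like cells lay in it.

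IL33 was highest in cluster 0, at 3707 CPM in follicle 1 and 3484 in follicle 2. Cluster 1 followed at 1645 and 1659, and cluster 5 at 1671 and 1269. The dividing cells of cluster 4 were lower, at 829 and 1240. Cluster 2 held 400.3 in follicle 1 and 728 in follicle 2, and cluster 3 held the least, 264 in follicle 2. The counting intervals of clusters 1 and 5 overlapped in follicle 1, those of clusters 4 and 5 overlapped in follicle 2, and the other neighbours in the order of each follicle did not. In cells drawn to 5000 UMIs the median went from 16 and 14 in cluster 0 to 5 in cluster 1 of either follicle and to 1 in clusters 2 and 3. IL33 in cluster 0 was 2.99 times (2.97 to 3.01) its level in the other cells of follicle 1 and 2.40 times (2.38 to 2.42) in follicle 2.

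RNA freed from broken cells can give UMIs in cells that do not make a transcript. In the 10 immune-like cells of follicle 2, 40% had no IL33 UMI at 5000 drawn UMIs and the median was 1, although their pooled level was 1003 CPM. With all their UMIs counted, 8 of these 10 cells had an IL33 UMI. Finding a UMI in most cells is therefore no measure of how many cells make IL33. Cluster 3 had no IL33 UMI in 37.7% of cells and cluster 2 in 30.1% and 26.1%, with a median of 1 in each, so the low IL33 of clusters 2 and 3 could not be told apart from such background. Cluster 4 was close to cluster 2 in this, with none in 24.5% and 25.2% of cells and a median of 2. Cluster 0 had none in 1.98% of cells of follicle 1 and 3.30% in follicle 2. The unevenness of IL33 also held inside cluster 0, where its variance was 10.3 and 10.4 times its mean.

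**Figure D3:**
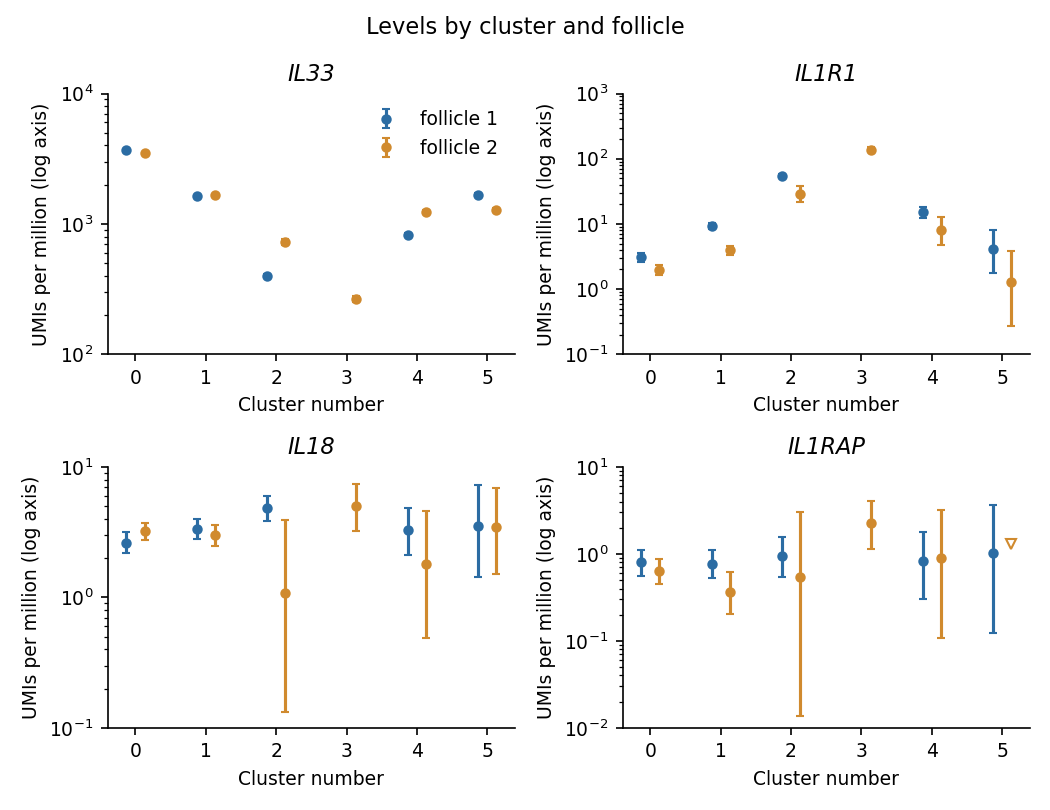
CPM (log axes) of IL33, IL1R1, IL18 and IL1RAP in each cluster and follicle, with 95% Poisson intervals, and an open triangle at the level of 3 UMIs where none was found. IL33 is highest in cluster 0 and lowest in cluster 3, and IL1R1 is at 3.08 and 1.99 in cluster 0 and highest, at 138, in cluster 3.

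The small excess of IL33 in follicle 2 was not found in each cluster. The ratio of follicle 2 to follicle 1 was 0.940 (0.934 to 0.946) in cluster 0 and 1.01 (0.997 to 1.02) in cluster 1. It was 1.82 (1.71 to 1.93) in cluster 2, 1.5 (1.43 to 1.57) in cluster 4 and 0.760 (0.722 to 0.799) in cluster 5. The follicles also differed in their makeup, since cluster 0 held 41.0% of cells in follicle 1 and 53.8% in follicle 2 and cluster 2 held 16.8% and 1.73%. The pooled level therefore mixes cells with high and low IL33 in different proportions. Cells of the same cluster also differed between follicles. In cluster 2, VCAN, a matrix gene of cumulus cells, stood at 7151 CPM in follicle 1 and 1712 in follicle 2. INHA stood there at 11467 and 21213. In cluster 4 VCAN stood at 3112 and 436. The ratios inside clusters may therefore not compare like cells, in clusters 2 and 4 above all.

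The level of IL33 moved with depth and with the mitochondrial share of the cells. From the 20% of cells with fewest UMIs to the 20% with most, IL33 went from 1816 to 2323 CPM in follicle 1, with 2523 in the next deepest 20%, and from 1642 to 2776 in follicle 2, with 2872 in the next deepest 20%. From the 20% with the lowest mitochondrial share to the 20% with the highest it went from 1692 to 3120 in follicle 1 and from 2476 to 2850 in follicle 2. The part of depth and of the mitochondrial share in the IL33 pattern was not tested. At the edge of the limits, barcodes with 1900 to under 2000 genes held 2570 and 1481 CPM, those with 2000 to under 2100 2203 and 1592, and those with a mitochondrial share from 6% to under 7% 3240 and 3093. Barcodes below 2000 genes held 2491 and 2472.

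Genes that ran with IL33 over cells were sought in the cells drawn to 5000 UMIs by Pearson's r of log(1 + UMIs), separately in each follicle. These r values describe 9343 and 7738 cells that share a library and a fixed total, and carry no p-value. Of 5052 genes found in at least 10% of cells, 185 (3.66%) had r of at least 0.1 with IL33 in both follicles and 89 (1.76%) had r of at most -0.1 in both. Over all these genes the median r was 0.00377 in follicle 1 and -0.0118 in follicle 2. The 5th and 95th percentiles were -0.0964 and 0.119 in follicle 1 and -0.0991 and 0.0984 in follicle 2.

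The 15 genes with the highest r in follicle 1 were INHA, RPS6KA3, HADH, AMIGO2, ITGB1, AREG, CYB5A, NPY1R, SRXN1, SQSTM1, TGFB3, DHRS11, TMA16, LOX and GPRC5B. Their r ran from 0.303 to 0.432 in follicle 1 and from 0.178 to 0.393 in follicle 2, so 15 of 15 were past 0.1 there too. INHA, the alpha subunit of inhibin, led with 0.432 in follicle 1 and reached 0.356 in follicle 2. Genes for secreted factors were among them: AREG, a ligand of the EGF receptor, had 0.367 and 0.319, and TGFB3, a ligand of the TGF-beta family, 0.337 and 0.323. SRXN1, a sulfiredoxin that repairs oxidised peroxiredoxins, had 0.345 and 0.393. LOX, which cross-links collagen, had 0.317 and 0.275, and ITGB1, an integrin subunit that binds matrix, had 0.373 and 0.302.

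The size of these relations can be read from the cells at both ends. The low end was the cells with 2 or fewer drawn IL33 UMIs, 3023 in follicle 1 and 2022 in follicle 2. The high end was those with at least 17 and 19, or 2363 and 1936 cells. Through ties at 2 UMIs the low end held more than 25% of cells, and its share differed between the follicles. From the low to the high end, TGFB3 went from 27.9 to 235.0 CPM in follicle 1 and from 40.8 to 295 in follicle 2. AREG went from 1656 to 3830 and from 3258 to 6623. SRXN1 went from 357 to 702 and from 327 to 736. Since they were chosen for their r, the direction of these differences was fixed by that choice.

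The 15 genes with the lowest r in follicle 1 were VCAN, INHBA, PDCD4, SBSN, S1PR1, ENSSSCG00000011147, APOA1, KTN1, FBXO7, MRO, CNN3, MRPS6, ALDH2, RSPO3 and ENO1. Of these 13 kept a negative sign in follicle 2 and 8 were at or below -0.1 there. Over all 5052 genes the median r in follicle 2 was -0.0118 and the 5th percentile -0.0991. A negative sign alone was thus common there. VCAN, the matrix proteoglycan of cumulus cells, was lowest with -0.560 in follicle 1 and -0.325 in follicle 2, and went from 4212 to 497 CPM between these ends in follicle 1 and from 722 to 220.1 in follicle 2. INHBA, the subunit that pairs into activin, had -0.516 and -0.247. PDCD4, an inhibitor of translation, had -0.458 and -0.245. INHA and INHBA, whose products join in inhibin, thus stood at opposite ends of the list. APOA1 had -0.384 and -0.0981.

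SBSN and RSPO3 did not keep their sign by Pearson's r. SBSN, which encodes suprabasin, had -0.445 in follicle 1 and 0.0293 in follicle 2, and RSPO3, an enhancer of WNT signalling, had -0.344 and 0.00456. By Spearman's rho SBSN had -0.463 and -0.0424, the same sign in both follicles, and RSPO3 had -0.327 and 0.0266. The difference between follicles was not tested.

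**Figure D4:**
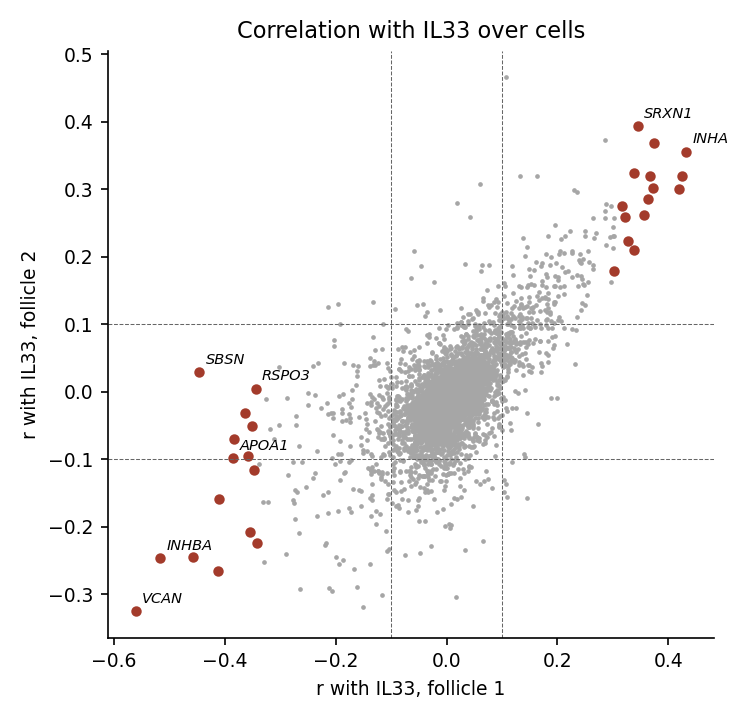
Pearson's r with IL33 over cells drawn to 5000 UMIs for 5052 genes, follicle 1 on the horizontal axis and follicle 2 on the vertical axis. Red points are the 15 highest and 15 lowest genes of follicle 1, dashed lines stand at 0.1 and -0.1, and SBSN and RSPO3 are the red points on the left that lie above 0 in follicle 2.

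Much of the relation was between clusters. In follicle 1 the share of cells in cluster 0 was 12.1% at the low IL33 end and 77.0% at the high end. In follicle 2 these shares were 21.8% and 82.8%. Inside cluster 0 alone, 8 of the 15 highest genes still had r of at least 0.1 in follicle 1 and 7 in follicle 2, and of the 15 lowest genes 6 and 4 were at or below -0.1. Over all genes tested in cluster 0, 33 had r of at least 0.1 in both follicles and 18 at most -0.1 in both. The share of all genes past these limits in 1 follicle alone was not counted. INHA had 0.0817 and 0.010 there and AREG 0.0402 and 0.0540. TGFB3 had 0.236 and 0.245.

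Inside cluster 0 some genes outside those 15 were among the 10 highest of follicle 1. TFPI2, an inhibitor of serine proteases, had 0.213 in follicle 1 and 0.252 in follicle 2, and its r over all cells was 0.107 and 0.465, the latter above the 0.393 of SRXN1. PHC2, a Polycomb protein, had 0.215 and 0.178, UAP1, which makes the sugar nucleotide for hyaluronan, 0.208 and 0.194, and the cell cycle kinase WEE1 0.196 and 0.167. SRXN1 had 0.184 and 0.194, about the same in both follicles. On the other side PDCD4 had -0.222 and -0.137, the microfibril gene FBN2 -0.168 and -0.165, and VCAN -0.144 and -0.0855.

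IL18, the other ligand among the members, was rare. Follicle 1 held 365 IL18 UMIs, or 3.28 CPM (2.95 to 3.64), and follicle 2 held 344, or 3.16 CPM (2.83 to 3.51). The ratio of 0.962 had an interval from 0.828 to 1.12, so no difference was detectable at this depth. IL18 was found in 3.16% of cells in follicle 1 and 3.54% in follicle 2, mostly as a single UMI. In cluster 0 it was at 2.64 (2.18 to 3.15) and 3.21 CPM, with intervals that overlap those of cluster 1 at 3.35 and 3.01. Cluster 2 of follicle 1 was above cluster 0, at 4.83 (3.84 to 6.01), but its interval overlaps that of cluster 1 (2.81 to 3.97). Cluster 2 of follicle 2 had 2 UMIs, and cluster 3 stood at 5.01 (3.21 to 7.46). IL18 in cluster 0 was at 0.708 (0.564 to 0.885) of its level in the other cells of follicle 1, and at 1.04 (0.833 to 1.29) in follicle 2. In the 10 immune-like cells of follicle 2 it was at 66.3, from 7 UMIs in 5 cells.

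IL1R1, the signalling receptor of IL1A and IL1B, ran opposite to IL33 over the clusters, except in cluster 5 of follicle 2. That cluster was below clusters 0 and 1 in both genes, with 3 IL1R1 UMIs. Follicle 1 held 1544 IL1R1 UMIs, or 13.9 CPM (13.2 to 14.6), and follicle 2 held 1004, or 9.22 CPM (8.66 to 9.81). It was low in cluster 0, at 3.08 and 1.99 CPM, and in cluster 5, at 4.05 and 1.31 from 8 and 3 UMIs. Cluster 1 followed at 9.25 and 3.93, cluster 4 at 15.2 and 8.08 and cluster 2 at 54.7 and 28.9. Cluster 3 of follicle 2 held the most, 138 CPM (128 to 149) from 662 UMIs, and 37.7% of its cells had one. No IL1R1 UMI was found in the immune-like cells, 8 of which lay in that cluster. Over all cells of cluster 3 the immune list summed to 84.4 CPM and the endothelial list to 27.4, against 12.7 and 13.0 in cluster 0 of follicle 2. The theca or stromal list summed to 84.0 against 597, and without INSL3 to 48.3 against 6.62, with the stromal genes DCN at 18.4 against 0.618 and LUM at 13.2 against 0.100. The smooth muscle genes MYH11 and ACTA2 were among the 10 leading genes of cluster 3, at 103 and 61.2 CPM. The part of other cell types in its IL1R1 was not tested.

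IL1R1 in cluster 0 was at 0.145 of its level in the other cells of follicle 1 (0.121 to 0.172) and at 0.110 in follicle 2 (0.0903 to 0.134). The next shares are over cells drawn to 5000 UMIs. In follicle 1 IL1R1 was found in 10.6% of cells with 2 or fewer IL33 UMIs and 1.35% with at least 17. In follicle 2 it was found in 10.5% of cells with 2 or fewer and 0.878% with at least 19. Inside cluster 1 the same groups had 6.91% (5.51% to 8.54%) and 2.28% (1.14% to 4.04%) in follicle 1, and 2.31% and 0.997% in follicle 2 with intervals that overlap. Inside cluster 0 they had 1.64% and 1.10% in follicle 1 and 0.682% and 0.749% in follicle 2, with overlapping intervals.

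Between follicles, IL1R1 was lower in follicle 2 with a ratio of 0.664 (0.613 to 0.719). Inside clusters the ratio was 0.646 (0.501 to 0.831) in cluster 0, 0.425 (0.349 to 0.515) in cluster 1, 0.528 (0.393 to 0.697) in cluster 2 and 0.533 (0.305 to 0.882) in cluster 4. As with IL33, these ratios may not compare like cells, since VCAN differed between follicles in clusters 2 and 4. Cluster 3 held 662 of the 1004 IL1R1 UMIs of follicle 2, and without it the log2 ratio went from -0.59 to -2.08. As the mean of the values of single cells, which gives shallow cells equal weight, the log2 ratio was 0.04. Over all cells, the direction between follicles thus changed with the weight given to single cells. The mean of the values of single cells was not taken inside clusters.

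IL1RAP, the accessory protein that both ST2 and the interleukin-1 receptor need, was scarce. It had 91 UMIs in 82 cells of follicle 1, or 0.818 CPM (0.659 to 1.00), and 66 UMIs in 51 cells of follicle 2, or 0.606 CPM (0.469 to 0.771). In follicle 2, 16 of the 66 UMIs came from 1 cell of cluster 0 with 8227 UMIs in all, where IL1RAP stood at 1945 CPM. Without that cell 50 UMIs were left, or 0.459 CPM (0.341 to 0.605). That cell had granulosa features, with INHA at 30145 CPM, and it also held 250 UMIs of MSMB. The ratio of follicle 2 to follicle 1 was 0.741 (0.531 to 1.03), or -0.43 on the log2 scale. The log2 ratio was -0.83 (-1.36 to -0.32) without that cell and -0.63 (-1.14 to -0.13) without cluster 3. Both choices were made after the data were seen. Each takes out cells of follicle 2 alone in which IL1RAP was high, so the fall of the ratio was fixed by the choice. As the mean of the values of single cells the log2 ratio was -0.04.

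By cluster, the counting intervals of IL1RAP overlapped throughout follicle 1, where clusters 0, 1 and 2 had 0.797, 0.775 and 0.955 CPM. Cluster 3 of follicle 2 held 2.30 (1.15 to 4.11), from 11 UMIs, and cluster 0 held 0.635 (0.449 to 0.872), the 16 UMIs of that cell included. IL1R1 and IL1RAP were found together in 5 cells of follicle 1 and 10 cells of follicle 2. The product of their shares over the cells gave 8.36 and 3.34. These are too few cells to describe a population that carries both.

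IL1RL1, the receptor gene of IL33, had no UMI in the cells of either follicle and none in the 14289 and 15548 deposited barcodes. A count of 0 allows up to 0.0270 CPM in follicle 1 and 0.0275 in follicle 2, and 0.0320% and 0.0383% of cells with a UMI. The deposited list gives this symbol to ENSSSCG00000008159, while a reference table of the same assembly gives IL1RL1 to ENSSSCG00000032795, which the list calls IL18R1. That second identifier had 2 UMIs in follicle 1 and 6 in follicle 2, of which 4 in follicle 2 lay in 2 immune-like cells. Whichever name is right, the receptor of IL33 was at or near the limit of detection in cells where IL33 was found in most. The mast cell list summed to 211 and 222 CPM, of which KIT gave 200.6 and 214 and HDC 10.6 and 7.62, while FCER1A and MS4A2 had 0 UMIs in follicle 1 and 1 and 2 in follicle 2.

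The other ligands and receptors of the family were sparse as well. Of 13 ligands and antagonists, 4 stood in the gene list by symbol, and besides IL33 and IL18 only IL1A was found, with 12 and 7 UMIs. IL1B2 had none, and IL1B and the antagonist IL1RN were not matched by symbol. Of the 10 receptor genes 5 had a UMI. SIGIRR, an inhibitory receptor of the family, was at 8.67 CPM in both follicles with a ratio of 1.00 (0.913 to 1.10). Cluster 0 held 8.11 and 8.35 CPM of it, cluster 2 10.3 and 15.8. The decoy receptor IL1R2 had 40 and 20 UMIs. IL1RL2, IL18RAP, IL1RAPL1 and IL1RAPL2 had none.

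The signalling proteins below the receptors were present. The 15 adaptors and kinases were each detected in both follicles, and of the 14 with at least 200 UMIs in 1 follicle none was 2-fold apart, which is near the background of 0.667% higher and 1.82% lower. Their log2 ratios ran from -0.35 to 0.18 with a median of -0.07, against a median of -0.0019 over all 10049 genes. MYD88, the adaptor of the family, was at 3.78 and 2.96 CPM, the ubiquitin ligase TRAF6 at 22.6 and 19.6, and the kinase gene MAP3K7 at 32.9 and 27.7. IRAK3, an inhibitory kinase of the pathway, was at 3.76 and 4.26.

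Among 18 NF-kB proteins and target genes, 14 had at least 200 UMIs in 1 follicle and 2 of them were at least 2-fold lower in follicle 2, none higher, against backgrounds of 1.82% and 0.667%. PTGS2, the cyclooxygenase of ovulatory prostaglandin synthesis, had 952 UMIs in follicle 1 and 22 in follicle 2, a ratio of 0.0236 (0.0147 to 0.0359). CXCL2, a neutrophil chemokine, had 236 and 14, a ratio of 0.0606 (0.0326 to 0.104). CXCL8, another such chemokine, had 107 UMIs in follicle 1 and 0 in follicle 2. In follicle 1 these 3 genes were highest in cluster 2, where PTGS2 was at 41.8 CPM, CXCL2 at 8.24 and CXCL8 at 5.01, and in cluster 0, where IL33 was highest, PTGS2 was at 1.24, CXCL2 at 0.332 and CXCL8 at 0.0443. In cluster 2 of follicle 2, which had 136 cells, no UMI of the 3 genes was found, and 3 UMIs would give 1.63 CPM there. The cells of cluster 2 are not alike in the 2 follicles, with VCAN at 7151 CPM in follicle 1 and 1712 in follicle 2.

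The inhibitor NFKBIA, itself a target of NF-kB, was at 9.99 CPM in follicle 1 and 13.5 in follicle 2. It was at 102 (92.7 to 111) in cluster 3, where IL1R1 was also highest, against 8.27 in cluster 0 of follicle 2. In cluster 2 it was at 17.1 (15.2 to 19.2) in follicle 1 and 33.2 (25.4 to 42.7) in follicle 2. The subunits REL and RELA were at 57.7 and 46.5 in follicle 1 and 56.5 and 39.2 in follicle 2. IL6 had 6 UMIs in each follicle.

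**Figure D5:**
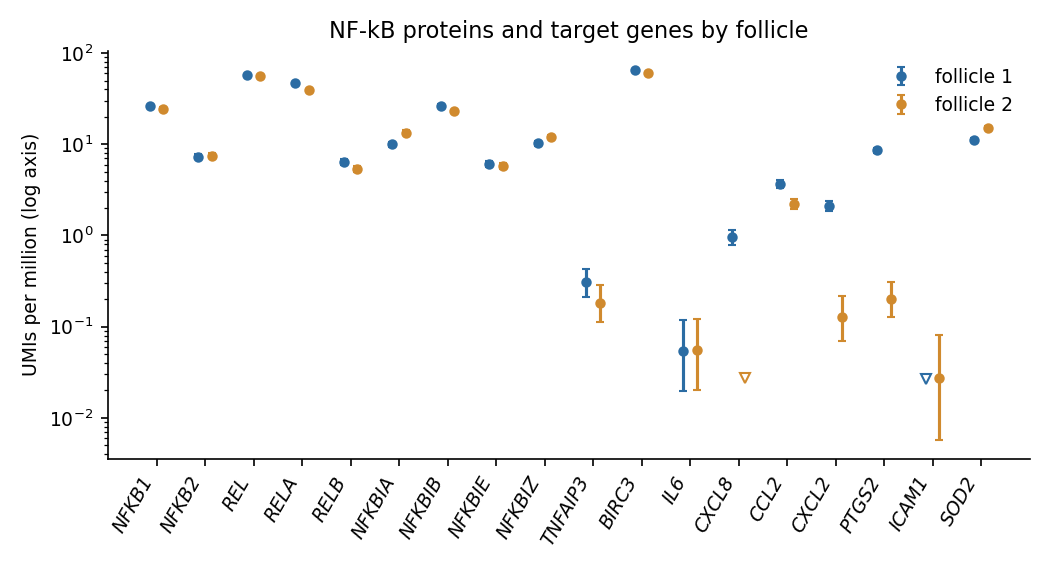
CPM (log axis) of 18 NF-kB proteins and target genes in each follicle, with 95% Poisson intervals, and open triangles at the level of 3 UMIs where none was found. The points of the follicles lie close together except for PTGS2, CXCL2 and CXCL8, which are lower in follicle 2.

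Of the proteases and inflammasome genes, 12 of 15 stood in the list. None of the 8 with at least 200 UMIs in 1 follicle was 2-fold apart, and over all genes 0.667% were higher and 1.82% lower by that much, so the 0 of 8 is no result about these genes. CASP1, the protease that matures IL18, had 0 UMIs in follicle 1 and 4 in follicle 2, and NLRP3 had 2 in each, and all of those in follicle 2 lay in the 10 immune-like cells. PYCARD, the adaptor of inflammasomes, had 25 and 49 UMIs, 28 of the latter in the immune-like cells. CTSS, a lysosomal protease, was at 10.1 and 14.4 CPM, but 616 of its 1566 UMIs in follicle 2 lay in the immune-like cells. Without these cells CTSS was at 10.1 and 8.73 CPM, and the ratio of follicle 2 to follicle 1 went from 1.43 (1.32 to 1.54) to 0.867 (0.794 to 0.946), the opposite direction. CAPNS1, the small subunit of the calpains, was at 242 and 248, and its r with IL33 was 0.102 in follicle 1 and 0.0607 in follicle 2.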

How the data were processed

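Somatic cells of 2 follicles of 1 pig were measured by 10x Genomics 3′ RNA sequencing, and samples were grouped by their titles. The authors aligned the reads and counted UMIs by CellRanger 6.0.2 against Sscrofa11.1; the deposited value is the raw count of each gene in each called barcode. Reads beyond an annotated 3′ end are not counted, which bears on genes listed at 0. A symbol was taken from the deposited list, or for 1042 of the 7356 genes listed by identifier alone from a reference table.

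Counts were summed over cells and divided by the sum of all genes, giving CPM (per 1000000 UMIs), with exact Poisson intervals. Shares have Clopper-Pearson and ratios exact conditional intervals at 95%, and where no UMI was found the limit is the level of 3. The follicles held 111226504 and 108920601 UMIs in cells. Immune-like cells had at least 10 UMIs over at least 3 of 10 markers. For r, cells were thinned to 5000 UMIs. Clustering used Seurat 5.3.0 in R 4.3.3, with anchors over 2000 variable genes and 40 components, at the lowest resolution giving 6 clusters. Other steps used Python 3.11.15, numpy 2.4.6, scipy 1.17.1 and pandas 2.3.3, and the ratio and r were tested on simulated data. No test compares follicles. The members, lists and tests were chosen with earlier results of these data known, and the marker check by cluster, NFKBIA by cluster and the cell rich in IL1RAP were chosen after their values were seen. The text names the members, genes of the pathway lists, the 15 highest and 15 lowest r in follicle 1, genes among the 10 highest and lowest inside the largest cluster, the leading genes of clusters, and APOA1. Genes correlated with other members were not sought because none was in 10% of thinned cells. Alternatives changed the limits on barcodes, doublets, library size, thinning, the measure of correlation, and the clustering. A few genes of the lists are not reported here.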

Additional observations from a re-analysis of the deposited data

Results flagged for a closer look

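Among the 30 genes named for the highest and lowest r with IL33 in follicle 1, 2 had the opposite sign in follicle 2. SBSN had r of -0.445 over the cells of follicle 1 and 0.0293 in follicle 2, and RSPO3 had -0.344 and 0.00456. The difference between follicles was not tested. Inside the largest cluster SBSN had -0.142 and -0.118, the same sign in both follicles, and RSPO3 had -0.0376 and 0.0284. By Spearman's rho SBSN had -0.463 and -0.0424, again the same sign, and RSPO3 had -0.327 and 0.0266.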

How the results depend on the processing

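No paired analysis was possible because each follicle is 1 library, and no replicate could be left out. Of 932 values computed under an alternative, 749 stayed within the limits set. These were the counting interval, 1.5 times a count, or 0.05 for r. The variance over the mean of IL33 had a limit set as a fixed share of its main value. The cause of the other shifts was not tested. The log2 ratio of IL33 between follicles (0.20) was 0.22 with mitochondrial and ribosomal protein genes left out of the totals, 0.15 as a mean of per-cell values, 0.19 with doublets removed and with 500 to 6000 genes, 0.18 with every deposited barcode and 0.25 without the cluster of follicle 2 alone. That of IL1R1 (-0.59) was -0.38 with 500 to 6000 genes, -0.33 with every barcode, -2.08 without that cluster and 0.0424, the opposite direction, as a mean of per-cell values. That of IL1RAP (-0.43) was -0.04 as a mean of per-cell values, -0.63 without that cluster and -0.83 without the cell rich in it. The ratio of CTSS (1.43) was 0.867 without immune-like cells. Leaving out immune-like cells, that cluster, or that cell was added after seeing the data. IL33 was found in 81.5% and 83.7% of cells thinned to 3000 UMIs and in 95.9% and 95.4% unthinned. Genes running with and against IL33 (185 and 89) numbered 390 and 159 without thinning and 33 and 18 inside the largest cluster, and 57 ran against it at 3000 UMIs. MRPS6 turned to an r of 0.0433 in follicle 1 inside that cluster. Without a filter on low counts 825 genes were at least 2-fold higher in follicle 2 and 709 lower. The log2 ratio of IL33 in the largest cluster to other cells (1.58 and 1.26) was 1.94 and 1.45 with doublets removed, 1.99 and 1.60 without integration, 1.42 and 1.13 with 20 components, 2.00 and 1.54 with another seed, and 2.10 and 1.66 with no gene left out of the variable genes. That of IL1R1 (-2.79 and -3.18) was -3.08 and -3.64 with doublets removed, -3.19 and -3.84 with no gene left out, and in follicle 2 -4.76 without integration and -3.80 with another seed. At this depth IL1RAP and IL18 give wide intervals inside clusters, and 0 UMIs of IL1RL1 was found under each choice of barcodes tried.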
